A study of Mus musculus with 10 samples.

Results

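Expression of 33 genes of cholesterol synthesis and sterol homeostasis was followed in the livers of 10 C57BL/6 wild-type mice, all collected at day 35. The genes were taken by symbol from a table of 59408 gene models, where all 33 were found and all 33 passed the filter on low values (10 or more normalised reads in 3 or more of the 10 libraries). They comprise 19 synthesis enzymes, 4 regulators, 4 genes of intracellular transport and esterification and 6 of export, uptake and receptor turnover. The 19 synthesis genes include Ggps1, whose product leaves the sterol route, and do not cover every enzyme of the pathway. The 33 were chosen with earlier results of these data known. The 4 control mice, numbered 1 to 4, were untreated. The 3 mice of the primary biliary cholangitis model (PBC, numbered 7 to 9) were immunised with 100 µg of 2-octynoic acid coupled to bovine serum albumin (2OA-BSA), first in complete Freund's adjuvant and at days 14 and 28 in incomplete adjuvant, and the first pair of injections came with 2 µg of intravenous α-galactosylceramide, a glycolipid ligand of NKT cells. The 3 mice of the primary sclerosing cholangitis model (PSC, numbered 11, 13 and 14) ate a diet with 0.089% 3,5-diethoxycarbonyl-1,4-dihydrocollidine (DDC) for 2 weeks, then regular food for 1 week and DDC for 1 more week; DDC feeding damages the bile ducts. The labels state no adjuvant or glycolipid for the controls, and give no sex, age or time of day for any mouse.

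The liver makes cholesterol from acetyl-CoA through mevalonate, isoprenoid pyrophosphates, squalene and lanosterol. The transcription factor SREBP2, encoded by Srebf2, raises the genes of this route when sterols are low: its escort protein SCAP carries it from the endoplasmic reticulum for processing, while INSIG proteins retain it when sterols are plentiful. Oxysterols act in the other direction through liver X receptors, which raise sterol exporters such as Abca1, Abcg1, Abcg5 and Abcg8, and hepatocytes also dispose of cholesterol into bile.

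Levels are normalised reads, that is, reads per gene model after the authors' DESeq2 scaling, given as mean ± SD with n = 4, 3 and 3 mice. Differences are log2 ratios, taken after adding 1 to each level, with the standard error (SE) and the adjusted p of limma over 18390 gene models, and a gene is said to rise or fall where adjusted p is under 0.05. The 95% intervals given are not adjusted for the number of models tested. Recovered depth ran from 38.3 M to 95.4 M reads per library. Mitochondrial models took 13.7% of the reads of control 2, against 5.13% to 8.67% in the other libraries. Of 7 hepatocyte markers, 2 rose in PBC and none was called in PSC by limma (0 at an unadjusted p under 0.05, and 1 lower by edgeR and by DESeq2). The summed level of these markers was 5973658 to 8757678 in controls, 8241275 to 11341415 in PBC and 5192432 to 5976312 in PSC. Alb makes up most of that sum and changed by -0.70 in PSC (adjusted p = 0.223), while 5 of the 7 markers had a positive log2 fold change there, with a median of 0.17. Of 14 macrophage and Kupffer cell markers, 13 rose in PBC and 8 in PSC (7 in PSC by edgeR). Of 8 cholangiocyte markers 3 rose in PBC (1 by edgeR) and 7 in PSC. All 8 neutrophil markers rose in both models by limma, with a median log2 fold change of 7.64 in PBC and 3.87 in PSC. In PSC edgeR called 5 of these 8 higher and DESeq2 6. Of 5 endothelial cell markers 1 fell in PSC. In PBC 0 of them were called by limma (1 lower at an unadjusted p under 0.05, 0 by edgeR and 0 by DESeq2). Of 7 stellate cell and fibroblast markers 3 rose in PBC and 4 in PSC, where Col1a1, a collagen gene, rose by 5.24 (SE 0.42, adjusted p = 6.56e-06). Over all tested models 7.6% rose in PBC and 8.25% in PSC, and 2.34% and 6.48% fell. The part of these cell types in the synthesis gene changes was not tested. In whole liver, fewer cells of a type and less RNA per cell cannot be told apart.

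In the DDC livers many genes of cholesterol synthesis were lower, led by Hsd17b7 and Sc5d, and the HDL receptor gene Scarb1 was higher, than in untreated livers. Against the controls, 12 of the 33 genes fell in PSC and 1 rose, where 6.48% and 8.25% of all tested models did so. Of the 19 synthesis genes 9 fell and none rose (limma; 0 also at an unadjusted p under 0.05, by edgeR and by DESeq2), and 17 of 19 had a negative log2 fold change. Their median was -1.13 (median SE 0.34), beside 0.06 over all tested models. In PBC against control, 2 of the 33 genes fell and 2 rose, where 2.34% and 7.6% of all tested models did, and the median of the 19 synthesis genes was -0.35. Both comparisons share the 4 control livers. In 15 of the 33 genes every PSC liver was below every control and in 2 above, against 15.6% and 15.9% of all tested models. For PBC these counts were 2 below and 3 above, against 6.89% and 12.7%. With equal library totals neither rise in PBC was called, while both falls were. Leaving out 1 library also moved these PBC counts: to 0 higher and 0 lower without PBC 9, 0 higher and 1 lower without control 1, 0 higher and 3 lower without PBC 7, and 4 higher and 2 lower without PBC 8. They were 1 higher and 2 lower without control 2, control 4, PSC 13 or PSC 14, and 2 higher and 1 lower without control 3. Over all tested models 1398 rose and 430 fell in PBC. Those numbers were 684 and 65 without PBC 9, and 1818 and 1574 without PBC 8.

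**Figure D1:**
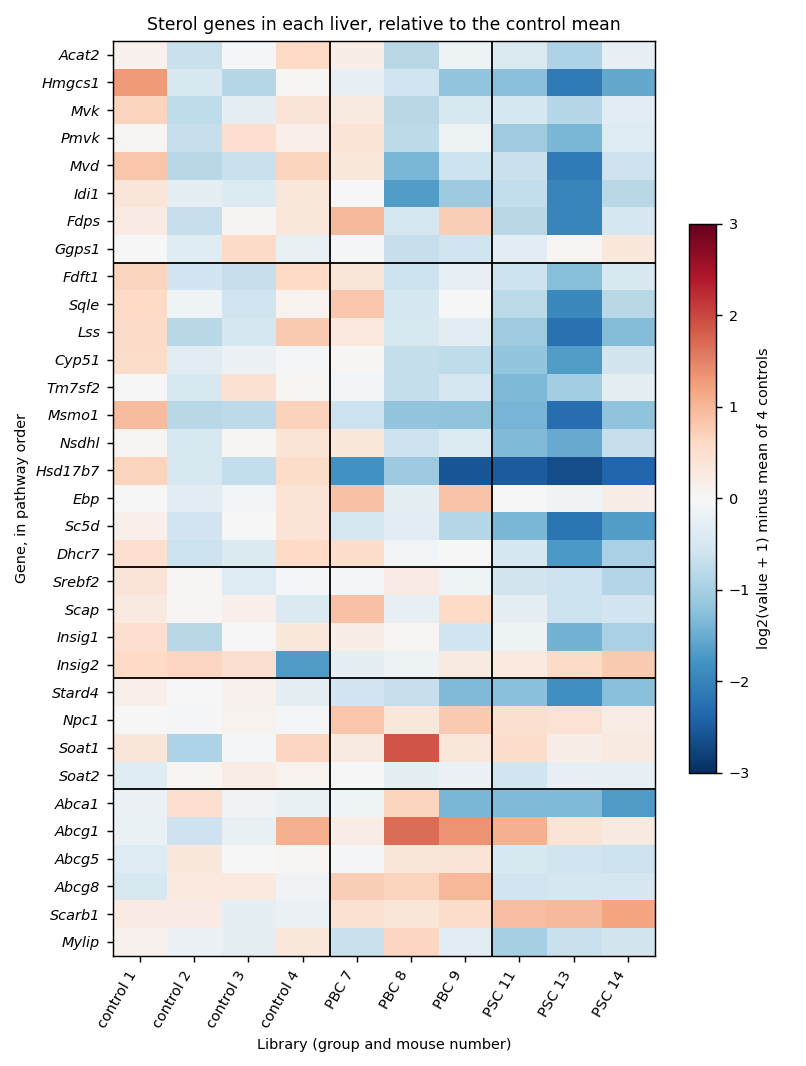
Heat map of the 33 sterol genes (rows, in pathway order, with lines between the 5 groups of genes) in the 10 livers (columns). Colour gives log2(value + 1) minus the mean of the 4 controls, from -3 (blue) to 3 (red). PSC 13 was the lowest of all 10 livers for 16 of the 19 synthesis genes in the upper part, and Hsd17b7 was low in all 3 PBC and all 3 PSC livers.

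The mevalonate steps make the isoprenoid building blocks. Hmgcs1, cytosolic hydroxymethylglutaryl-CoA synthase (chromosome 13, 119690351 to 119708260 on mm10), had 38815, 11527, 8872 and 16426 normalised reads in controls 1 to 4, 13545, 10569.6 and 7067 in PBC 7 to 9, and 6689, 3676 and 5474 in PSC 11, 13 and 14. All 3 PSC livers lay below all 4 controls, although control 1 was far above the other controls and the PBC livers overlapped them. In PSC Hmgcs1 fell by 1.64 (SE 0.41, adjusted p = 0.0196), to 32.1% of the control level. The PBC change was -0.67, SE 0.41, adjusted p = 0.327.

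Idi1, the isomerase that makes both isoprenoid units available, had 19919.9, 12898, 11666 and 19529.8 normalised reads in controls 1 to 4, 15450.3, 4899 and 7338 in PBC 7 to 9, and 9370.1, 3880.2 and 8718 in PSC 11, 13 and 14. The PSC values lay below every control, but the change missed the threshold in PSC (-1.19, SE 0.38, adjusted p = 0.054) and in PBC (-0.92, SE 0.38, adjusted p = 0.144). In PSC, Idi1 was called lower with pseudocount 10, TMM scaling, equal totals, DESeq2, only the compared groups, quality weights or scaling to the hepatocyte markers. Leaving out control 3, PBC 7 or PBC 8 also gave that call. Fdps, farnesyl pyrophosphate synthase, had 23718, 12393, 21266 and 25464 normalised reads in controls 1 to 4, 38945, 14134 and 33393 in PBC 7 to 9, and 11289, 5033 and 14044 in PSC 11, 13 and 14. Its highest value was in PBC 7 and its lowest in PSC 13, and the PSC livers were all below the PBC livers without a call (-1.51, SE 0.43, adjusted p = 0.0887 for PSC against PBC). Against control the PSC change of Fdps was -1.11, SE 0.40, adjusted p = 0.0783. Fdps was called lower there with DESeq2, quality weights, scaling to the hepatocyte markers or without PBC 8.

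The other mevalonate genes did not pass in either model. Acat2, which joins acetyl-CoA units, changed by -0.53 in PSC, Mvk and Pmvk, both kinases, by -0.56 and -0.94, and the decarboxylase Mvd by -1.14 (adjusted p from 0.0709 to 0.283). In PSC, Pmvk was called lower with equal totals, DESeq2, quality weights or without control 2 or PBC 8. Acat2, Mvk and Mvd were called lower there with quality weights only. Ggps1, which makes geranylgeranyl pyrophosphate for protein prenylation and so leaves the sterol route, was at 636 ± 199.8 in controls, 459 ± 114 in PBC and 633 ± 137 in PSC. The 95% interval of the Ggps1 difference between PSC and control ran from -0.56 to 0.60. Its model shares bases with those of Tbce and B3galnt2, and it is not known here whether reads were counted by strand.

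Most of the falls called by limma in PSC were in the steps from squalene to cholesterol, where 8 of 11 genes fell, against 6.48% of all tested models. Of the 8 mevalonate genes 1 fell. The median log2 fold changes were closer, at -1.185 for these 11 genes (10 negative) and -1.025 for the 8 (7 negative). DESeq2 called 9 of the 11 and 4 of the 8 lower. Whether the 2 stretches differ was not tested. Sqle, squalene epoxidase, had 16215, 9825, 7048 and 11544 normalised reads in controls 1 to 4, 18676, 7346 and 10789 in PBC 7 to 9, and 6077, 2809 and 6023 in PSC 11, 13 and 14. The PSC livers were below every control and every PBC liver, and Sqle fell by 1.19 (SE 0.36, adjusted p = 0.0426). Lss, lanosterol synthase, had 5494, 2059, 2562 and 6378 normalised reads in controls 1 to 4, 4506, 2634 and 2907 in PBC 7 to 9, and 1757, 778 and 1486 in PSC 11, 13 and 14. Here too PSC stood apart from both other groups, and Lss fell by 1.54 (SE 0.39, adjusted p = 0.0209), to 34.4% of the control level.

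Cyp51, the lanosterol demethylase, had 14194, 7641, 8501 and 9395 normalised reads in controls 1 to 4, 9887, 5921 and 5684 in PBC 7 to 9, and 4279, 3010.0 and 6628 in PSC 11, 13 and 14. The PSC and control livers did not overlap, and Cyp51 fell by 1.13 (SE 0.30, adjusted p = 0.0229). The sterol reductase gene Tm7sf2 had 10911, 7898, 15084 and 11187 normalised reads in controls 1 to 4, 10417, 6639 and 7783 in PBC 7 to 9, and 4289, 5315 and 8894 in PSC 11, 13 and 14. One PSC liver (PSC 14) was above control 2, and Tm7sf2 fell by 0.90 (SE 0.28, adjusted p = 0.0432).

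Msmo1, the methylsterol monooxygenase that begins removal of a pair of sterol methyl groups, had 20575, 5944, 6182 and 17114 normalised reads in controls 1 to 4, 6868, 4671 and 4628 in PBC 7 to 9, and 4071, 2193 and 4588 in PSC 11, 13 and 14. Controls 1 and 4 were well above controls 2 and 3, as they were for Fdft1 and Lss, and the PSC livers were below all of them. Msmo1 fell by 1.63 (SE 0.42, adjusted p = 0.0219) in PSC, and in PBC the change was -1.01, SE 0.42, adjusted p = 0.143. Nsdhl, a dehydrogenase of the same demethylation (chromosome X, 72918521 to 72958528), had 5185, 3554, 5076 and 6603 normalised reads in controls 1 to 4, 6306, 3253 and 3733 in PBC 7 to 9, and 1978, 1734 and 3071 in PSC 11, 13 and 14. It fell by 1.19 (SE 0.28, adjusted p = 0.0141), and PSC stood below both other groups.

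Hsd17b7, the keto reductase of that demethylation (chromosome 1, 169949537 to 169969205), gave the largest fall among the 33 genes in each model. It had 2447, 1096, 915 and 2252 normalised reads in controls 1 to 4, 438, 720.1 and 258 in PBC 7 to 9, and 270.1, 243 and 296 in PSC 11, 13 and 14. All 6 cholangitis livers were below the lowest control. In PSC it fell by 2.51 (SE 0.38, adjusted p = 0.00118), to 17.6% of the control level, and in PBC by 1.82 (SE 0.38, adjusted p = 0.00969), to 28.3%. A difference between the models did not pass the test for this gene (-0.69, SE 0.41, adjusted p = 0.379), with a 95% interval of -1.57 to 0.19. Of the 19 synthesis genes, Hsd17b7 was the one that fell in PBC. Under alternatives others were called lower there too: Idi1, Cyp51, Tm7sf2, Msmo1 and Sc5d with scaling to the hepatocyte markers, Hmgcs1 and Msmo1 with quality weights, Msmo1 with DESeq2, and Idi1 without PBC 7.

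Sc5d, the sterol desaturase near the end of the route (chromosome 9, 42254139 to 42264300), had the smallest adjusted p of the 33 in PSC against control. It had 20489.9, 12399.6, 18760.3 and 24585 normalised reads in controls 1 to 4, 13001, 14672 and 10212 in PBC 7 to 9, and 7159, 4047 and 5763 in PSC 11, 13 and 14. The PSC livers were below both other groups, which overlapped with each other. Sc5d fell by 1.75 (SE 0.26, adjusted p = 0.000919) in PSC against control, to 29.8%. It was also lower in PSC than in PBC (-1.18, SE 0.28, adjusted p = 0.0424 for PSC against PBC).

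The other members of this stretch did not pass in PSC. Ebp, the sterol isomerase, was at 24545 ± 5375 in controls, 35964 ± 13930.0 in PBC and 24598 ± 2482 in PSC, and the 95% interval of the PSC difference ran from -0.57 to 0.62. Dhcr7, the reductase of a late step, had 4553, 2063, 2376 and 4847 normalised reads in controls 1 to 4, 4638, 3030.4 and 3265 in PBC 7 to 9, and 2283, 977 and 1643 in PSC 11, 13 and 14. Its PSC values were below all PBC values, and PSC 11 was above control 2 (-1.06, SE 0.34, adjusted p = 0.053 for PSC against control). In PSC, Dhcr7 was called lower with pseudocount 10, TMM scaling, edgeR, DESeq2, quality weights or scaling to the hepatocyte markers. Leaving out control 2, control 3, PBC 8 or PSC 11 also gave that call. Fdft1, squalene synthase, changed by -0.79 in PSC (adjusted p = 0.162) and was called lower there with quality weights only. Its model overlaps that of Ctsb, a far more abundant cathepsin gene, by 769 bases.

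**Figure D2:**
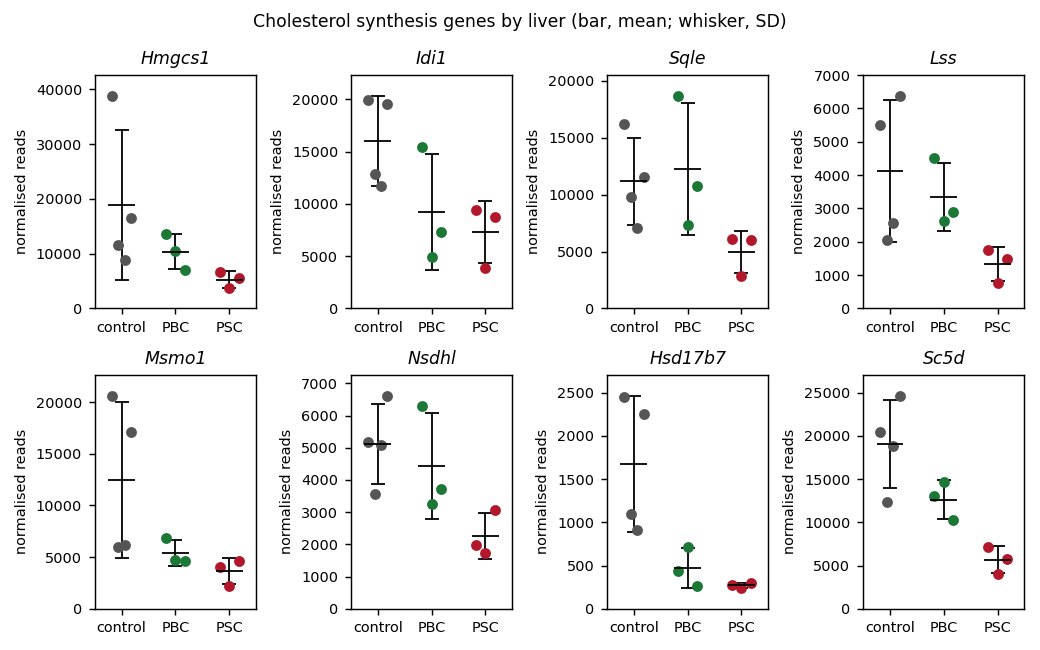
Normalised reads (vertical axis, from 0) of 8 synthesis genes in each liver, with the group mean as a bar and the SD as a whisker for 4 control, 3 PBC and 3 PSC mice. For Hsd17b7 the 3 PSC livers lie between 243 and 296 and the controls between 915 and 2447, while for Idi1 no change passed the test.

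These calls rested on few mice. Leaving out 1 library changed the number of members that fell in PSC from 12 to 7 without control 1, 6 without PSC 11, 3 without PSC 13, 7 without PSC 14 and 8 without control 4. Over all tested models the number went from 1192 to 521, 493, 509, 251 and 759, in the same order. The falls of Hsd17b7, Sc5d and Stard4 in PSC kept their calls under all 20 alternatives run (adjusted p at most 0.0111). The call was lost for Hmgcs1 without PSC 13 (adjusted p = 0.0859) or PSC 14 (0.0692), for Lss without control 1 (0.0604), PSC 13 (0.0984) or PSC 14 (0.0594), for Cyp51 without control 1 (0.0654), PSC 11 (0.0755) or PSC 13 (0.111) and for Nsdhl without PSC 11 (0.0619) or PSC 13 (0.0702). Msmo1 lost it without control 1, control 4, PSC 11 or PSC 13 (0.0509 to 0.0994). Sqle lost it with no filter, without any 1 PSC liver, or without PBC 9 or controls 1, 2 or 4 (0.052 to 0.188), and Tm7sf2 with no filter or without control 1, control 3, control 4, PBC 9, PSC 11 or PSC 13 (0.0529 to 0.181). The fall of Hsd17b7 in PBC lost it without PBC 9 (0.0611). The fall of Sc5d against PBC was lost with equal totals, with scaling to the hepatocyte markers or without control 1, any 1 PBC liver or any 1 PSC liver (0.0516 to 0.199). With sample quality weights Hmgcs1 moved to -2.55 and Msmo1 to -2.35 in PSC, and Hsd17b7 to -2.42 in PBC.

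The synthesis genes also differed among livers of one group. Within the PBC group, PBC 7 was the highest liver for 17 of the 19 genes and PBC 8 the lowest for 14. Within the controls, control 1 was the highest for 9 and control 4 for 7, and control 2 was the lowest for 14. Within PSC, PSC 13 was the lowest for 17, and it was the lowest of all 10 livers for 16. The summed level of the 19 genes was 270151, 140927, 185501 and 257713 in controls 1 to 4, 251440, 128413 and 185761 in PBC 7 to 9, and 115611, 79225 and 134779 in PSC 11, 13 and 14, so that PSC 14 was the PSC liver nearest to control 2. Some other values had the order of the synthesis sum in PBC and PSC, but not in the controls. The normalised total over all models was 110.1 M in PBC 7, 81.4 M in PBC 8 and 105.1 M in PBC 9, and 89.5 M, 89.5 M and 95.7 M in PSC 11, 13 and 14. The summed hepatocyte markers, at 11341415, 8241275 and 8972625 in PBC 7 to 9 and 5511717, 5192432 and 5976312 in PSC 11, 13 and 14, had the same order as the synthesis sum within PBC and PSC. In controls 1 to 4 the totals were 86.0 M, 89.1 M, 97.8 M and 86.4 M. The summed hepatocyte markers there were 7257500, 7866769, 5973658 and 8757678. Neither followed the order of the synthesis sum in the controls. The part of these values in the ranks was not tested. When each library was scaled to its hepatocyte markers, an alternative chosen after the data were seen, 14 of the 33 genes were lower and 1 higher in PSC than in controls, and 12 of the 13 calls were kept. In that fit 691 of all tested models were lower and 1099 higher.

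The promoters of 5 genes called in PSC are shown. They are the bases before the annotated start on GRCm38.p6, from RefSeq, 5′ to 3′ on the strand of the gene, without any stretch that overlaps an annotated exon. The synthesis genes with the smallest adjusted p in PSC and a sequence in the table were taken with 1 exporter. Capitals mark the core of a sterol regulatory element (TCACNCCAC), a CCAAT box, an E-box (CACGTG) and a GC box (GGGCGG), on either strand. None of these matches in the 5 promoters overlaps another.
Sc5d promoter, chr9:42264301-42264550, minus strand, 250 to 1 bases before the start: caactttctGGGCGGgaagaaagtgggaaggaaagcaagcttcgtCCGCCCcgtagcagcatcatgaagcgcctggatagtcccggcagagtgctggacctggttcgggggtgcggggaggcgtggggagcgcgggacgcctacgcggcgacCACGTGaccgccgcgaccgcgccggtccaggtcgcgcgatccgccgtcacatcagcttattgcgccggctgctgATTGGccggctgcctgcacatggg
Hsd17b7 promoter, chr1:169969242-169969408, minus strand, 203 to 37 bases before the start: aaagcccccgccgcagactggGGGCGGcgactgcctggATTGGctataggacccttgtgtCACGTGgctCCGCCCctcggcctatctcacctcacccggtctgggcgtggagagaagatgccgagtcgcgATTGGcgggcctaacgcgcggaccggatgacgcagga
Nsdhl promoter, chrX:72918412-72918520, plus strand, 109 to 1 bases before the start: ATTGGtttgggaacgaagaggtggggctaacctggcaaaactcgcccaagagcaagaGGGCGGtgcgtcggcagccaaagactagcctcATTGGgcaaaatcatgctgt
Hmgcs1 promoter, chr13:119690101-119690350, plus strand, 250 to 1 bases before the start: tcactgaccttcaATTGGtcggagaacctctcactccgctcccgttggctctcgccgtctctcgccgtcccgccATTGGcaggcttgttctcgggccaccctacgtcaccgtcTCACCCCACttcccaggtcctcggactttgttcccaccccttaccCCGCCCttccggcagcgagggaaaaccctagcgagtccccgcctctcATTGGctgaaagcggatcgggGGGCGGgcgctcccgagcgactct
Abca1 promoter, chr4:53159896-53160145, minus strand, 250 to 1 bases before the start: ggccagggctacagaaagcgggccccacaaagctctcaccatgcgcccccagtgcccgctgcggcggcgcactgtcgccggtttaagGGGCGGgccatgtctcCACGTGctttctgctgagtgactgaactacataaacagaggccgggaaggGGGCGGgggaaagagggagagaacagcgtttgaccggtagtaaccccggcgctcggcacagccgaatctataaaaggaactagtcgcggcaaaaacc

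In the promoter of Hmgcs1 the sterol element core TCACCCCAC began 137 bases before the start, between CCAAT boxes read as ATTGG that began 176 and 45 bases before it. CCAAT is the site of NF-Y and GGGCGG a site of Sp1, both known partners of SREBP at sterol-responsive promoters. A window of 250 bases before the start was in the RefSeq table for 16 of the 19 synthesis genes. A CCAAT box was in 14 of these 16 windows (87.5%), against 33.8% of all 32851 windows of that length, and a GC box in 14 (87.5%), against 32.7%. The core TCACNCCAC was in 1 of 16, against 1.05% of all windows, and CACGTG in 2 of 16, against 6.02%. The 16 windows were 1 per gene, each of a gene that passed the filter on low values. The 32851 took in every window without that filter, so the sets are unlike. Mvk, Pmvk, Mvd, Idi1, Ggps1 and Ebp, which were not called in PSC, also held CCAAT boxes. These are matches of letters only, and their part in the changes was not tested.

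Of the 4 regulators 1 fell in PSC, where 6.48% of all tested models did. In PBC 0 were called by limma (0 at an unadjusted p under 0.05, by edgeR or by DESeq2), where 2.34% of all tested models fell and 7.6% rose. Srebf2 (chromosome 15, 82147203 to 82205376) had 940.4, 739, 552 and 704 normalised reads in controls 1 to 4, 699, 857 and 662 in PBC 7 to 9, and 492, 461 and 391 in PSC 11, 13 and 14. The PSC livers were the lowest and did not overlap with either other group. Srebf2 fell by 0.69 (SE 0.22, adjusted p = 0.0497), with an adjusted p at the edge of the threshold that passed it under 7 of 20 alternatives. Omitting any 1 PSC liver, PBC 7 or PBC 9, or a control other than control 3, ended the call, as did pseudocount 10, no filter, TMM scaling, equal totals and scaling to the hepatocyte markers (adjusted p from 0.0502 to 0.204).

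Insig1, which is itself raised by SREBP2, had 139715, 55963, 99404 and 123538 normalised reads in controls 1 to 4, 111228, 102570.4 and 65344 in PBC 7 to 9, and 88962, 36830.3 and 50071 in PSC 11, 13 and 14. PSC 11 lay within the range of the controls, and the change in PSC was -0.85, SE 0.36, adjusted p = 0.124. Insig2 had 12192, 12701, 11286 and 2488 normalised reads in controls 1 to 4, 6692, 7252 and 9837 in PBC 7 to 9, and 10009, 12140.4 and 13944 in PSC 11, 13 and 14. Control 4 was far below the other controls, and both models overlapped the controls (0.55, SE 0.45, adjusted p = 0.444 in PSC, and -0.01 without control 4). Scap was at 5844 ± 1147 in controls, 8036 ± 2928 in PBC and 4099 ± 593 in PSC, and no comparison of it passed.

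Transport inside the cell gave a fall in both models. Stard4, a carrier that moves sterol between membranes, had 23333, 21352, 23238 and 17332 normalised reads in controls 1 to 4, 14122, 13058 and 8475 in PBC 7 to 9, and 8915, 5883 and 8812 in PSC 11, 13 and 14. All 6 cholangitis livers were below the lowest control. Stard4 fell by 1.45 (SE 0.23, adjusted p = 0.0014) in PSC and by 0.87 (SE 0.23, adjusted p = 0.0302) in PBC. The difference between the 2 models missed the threshold for Stard4 after adjustment (-0.59, SE 0.24, adjusted p = 0.222). Its 95% interval, which is not adjusted, ran from -1.11 to -0.06 and so left out 0. The PBC call was lost without control 1, control 3 or PBC 9 (adjusted p 0.0591 at the lowest and 0.153 at the highest) and with only the compared groups (0.063).

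Npc1, which passes cholesterol out of lysosomes, went the other way. It had 5233, 5107, 5615 and 5030.0 normalised reads in controls 1 to 4, 9353, 6607 and 9018 in PBC 7 to 9, and 7291, 7046 and 6151 in PSC 11, 13 and 14. Every cholangitis liver was above every control, and the controls lay close together. Npc1 rose by 0.65 (SE 0.17, adjusted p = 0.0329) in PBC, and the PSC change was 0.38, SE 0.17, adjusted p = 0.163. Macrophages also express Npc1, and the summed level of the 14 macrophage and Kupffer cell markers was 54395 to 90859 in controls, 188189 to 265915 in PBC and 145612 to 185791 in PSC. None of these markers was at 0 in every library, and the part of macrophages in the Npc1 change was not tested. The Npc1 call ended when PSC 13, PSC 14, PBC 7, PBC 9 or a control other than control 3 was omitted (adjusted p from 0.0517 to 0.138), with equal totals (0.0635), with only the compared groups (0.0864) and with scaling to the hepatocyte markers (0.425).

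Neither esterifying enzyme passed in any comparison. Soat1, the form of macrophages and other cells, was at 133 ± 54.9 in controls, 254 ± 176 in PBC and 156 ± 20.1 in PSC, and PBC 8 alone reached 457. Soat2, the form of hepatocytes, was at 3121 ± 506, 2776 ± 245 and 2419 ± 317.

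The exporters did not move as 1 group. Abca1, which loads cholesterol onto lipid-poor apolipoprotein (chromosome 4, 53030788 to 53159896), had 1966, 3118, 2056 and 1883 normalised reads in controls 1 to 4, 2019, 3524 and 851 in PBC 7 to 9, and 881, 882 and 684 in PSC 11, 13 and 14. The 3 PSC livers and PBC 9 were low, while PBC 8 was the highest liver. Abca1 fell by 1.45 (SE 0.37, adjusted p = 0.0206) in PSC, to 36.7% of the control level, and the PBC change was -0.28, SE 0.37, adjusted p = 0.677, turning to 0.27 without PBC 9. The call in PSC was lost without control 2 or any 1 PSC liver (adjusted p from 0.0528 to 0.099).

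Abcg8, which forms with Abcg5 the canalicular pump that moves sterols into bile (chromosome 17, 84676299 to 84700332), had 3031, 5151, 5149.9 and 3889 normalised reads in controls 1 to 4, 7043, 6709 and 8331 in PBC 7 to 9, and 2816, 2902 and 2981 in PSC 11, 13 and 14. The PBC livers were above and the PSC livers just below every control. Abcg8 rose by 0.80 (SE 0.20, adjusted p = 0.0272) in PBC, and in PSC against control the change was -0.54, SE 0.20, adjusted p = 0.0949. The models differed: Abcg8 was lower in PSC than in PBC (-1.34, SE 0.22, adjusted p = 0.00669 for PSC against PBC), a call kept under all 20 alternatives. The rise in PBC was no longer called when PBC 7, PBC 9, control 1 or control 4 was omitted (adjusted p from 0.0523 to 0.123), with equal totals (0.0568), with only the compared groups (0.0787) and with scaling to the hepatocyte markers (0.286).

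Its partner Abcg5 had 3968, 6406, 5219 and 5431 normalised reads in controls 1 to 4, 4959, 6696 and 6725 in PBC 7 to 9, and 3779.9, 3409.5 and 3313 in PSC 11, 13 and 14. The PSC livers were below both other groups, while PBC and control livers overlapped, and no comparison passed (-0.57, SE 0.20, adjusted p = 0.0688 for PSC and 0.23, SE 0.20, adjusted p = 0.496 for PBC against control). The models of Abcg5 and Abcg8 share 6713 bases, so that their counts may not be independent. Abcg1, which exports cholesterol to HDL and is prominent in macrophages, had 118, 87.3, 115 and 283 normalised reads in controls 1 to 4, 159, 435 and 347 in PBC 7 to 9, and 282, 181 and 163 in PSC 11, 13 and 14. Control 4 was above every PSC liver and above PBC 7, the other controls were below all 6 cholangitis livers, and no change passed (1.09, SE 0.42, adjusted p = 0.119 in PBC).

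Scarb1, the hepatocyte receptor for selective uptake from HDL (chromosome 5, 125277089 to 125341094), was the member that rose in PSC. It had 18255, 18264, 12686 and 13682 normalised reads in controls 1 to 4, 21409, 19898 and 22205 in PBC 7 to 9, and 29237, 30521 and 35094 in PSC 11, 13 and 14. The order was control, PBC and PSC with no overlap between any pair of groups. Scarb1 rose by 1.02 (SE 0.19, adjusted p = 0.00383) in PSC, or 2.03-fold, a call kept under all 20 alternatives, and the PBC change was 0.45, SE 0.19, adjusted p = 0.149. Mylip, a ubiquitin ligase that turns over lipoprotein receptors and is raised by liver X receptors, was at 457 ± 86.3 in controls, 449 ± 228 in PBC and 272 ± 42.7 in PSC, and no change passed.

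**Figure D3:**
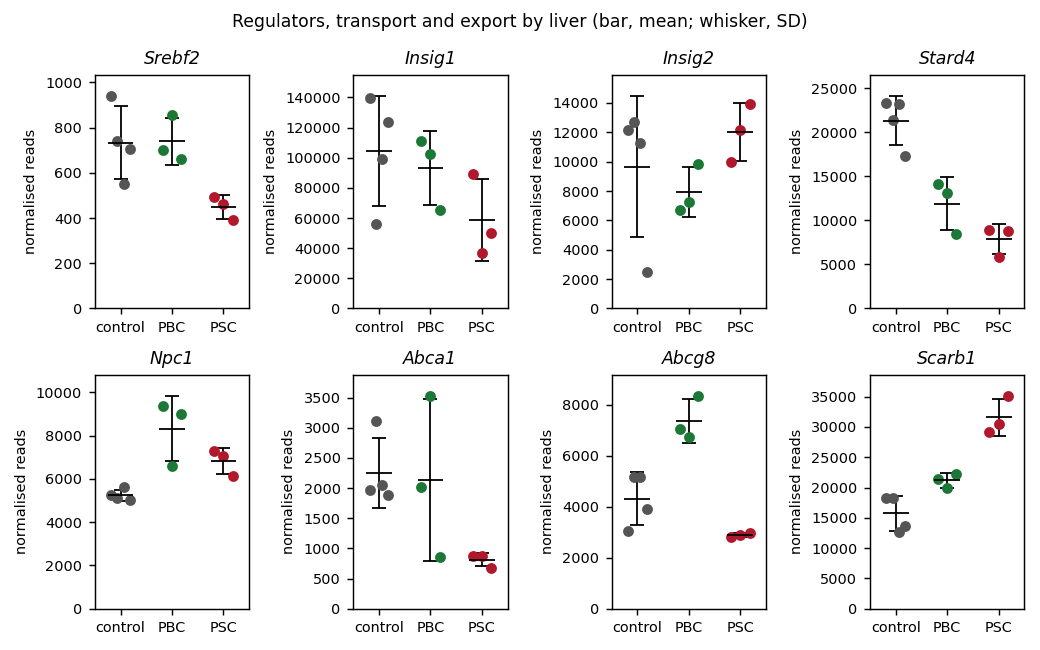
Normalised reads (vertical axis, from 0) of 8 regulator, transport and export genes in each liver, with group mean (bar) and SD (whisker) for 4 control, 3 PBC and 3 PSC mice. Stard4 was below the controls in all 6 cholangitis livers, Scarb1 was highest in PSC, and Abcg8 was above the controls in PBC and below them in PSC.

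Set directly against PBC, the PSC livers had 2 lower members, Sc5d and Abcg8, and none higher (limma; 1 higher at an unadjusted p under 0.05, 0 by edgeR and 0 by DESeq2), where 1.11% and 1.13% of all tested models were lower and higher. Of the 33 genes, 30 had a negative log2 fold change, with a median of -0.62, beside -0.02 over all tested models. In 12 members every PSC liver was below every PBC liver, and in 2 every PSC liver was above, against 14.6% and 12.6% of all tested models. The number lower was 8 with DESeq2 and 9 with sample quality weights. It was 3 without PBC 8. It was 1 without control 1, PBC 7, PSC 11, PSC 13 or PSC 14, 1 with equal totals and 1 with scaling to the hepatocyte markers. Over all tested models 204 were lower, 590 with DESeq2, 658 with sample quality weights and 59 to 261 with 1 library left out.

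**Figure D4:**
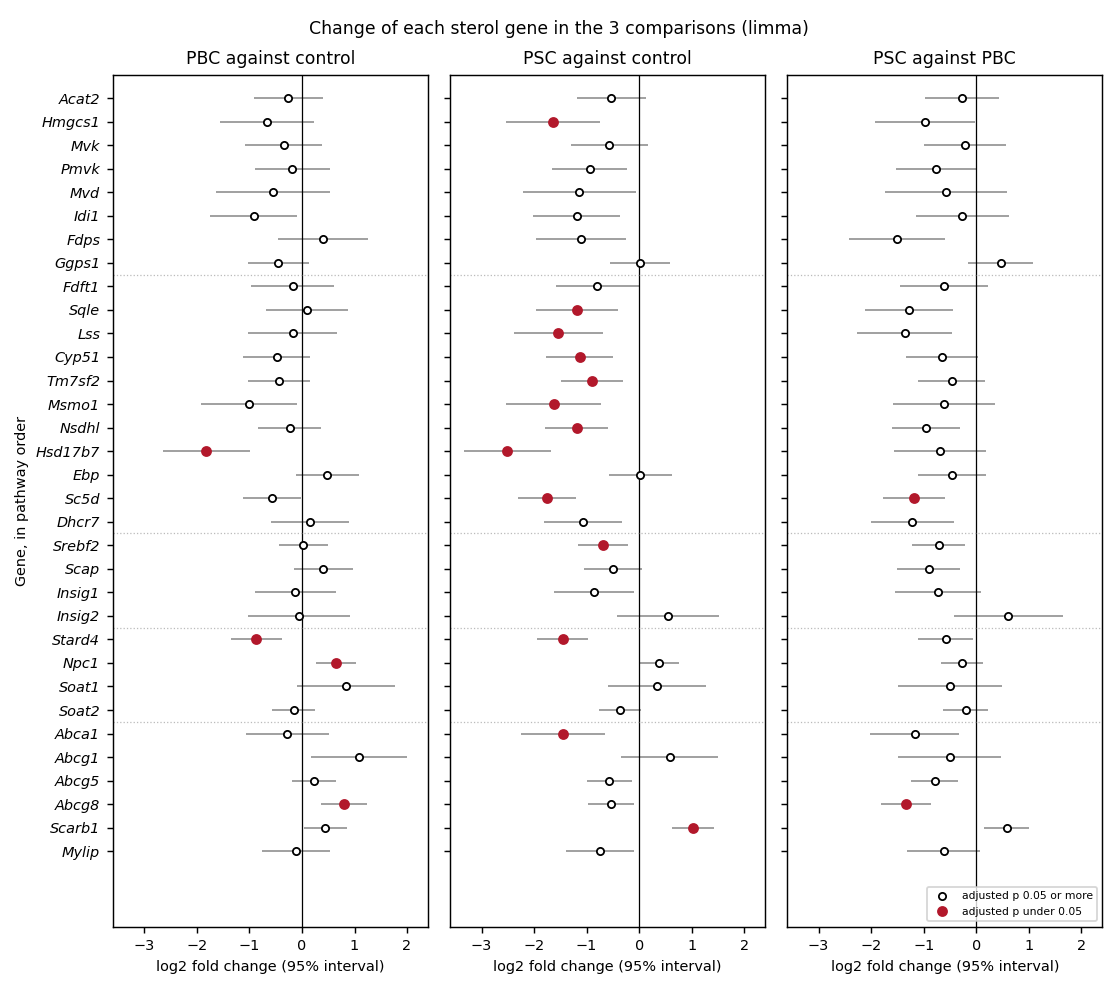
Log2 fold change of each of the 33 genes with its 95% interval (horizontal axis) in the 3 comparisons, with filled red points for adjusted p under 0.05 in limma and open points for the rest. The called genes of PSC against control lie left of 0 except Scarb1, and PBC against control has 4 called genes (Hsd17b7, Stard4, Npc1 and Abcg8).

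Related genes outside the 33 were examined in 5 lists, which were chosen with earlier results of these data known. Of 7 other sterol-responsive and acetyl-CoA supply genes, 6 fell in PSC against control (6.48% of all tested models did), 3 (Acly, Rdh11 and Acss2) were lower in PSC than in PBC (1.11%) and 0 were called in PBC against control by limma (1 lower at an unadjusted p under 0.05, 0 by edgeR and 1 lower by DESeq2). Acly, which makes cytosolic acetyl-CoA from citrate, had 14222, 11002, 28708 and 25094 normalised reads in controls 1 to 4, 23067, 22089 and 16860.2 in PBC 7 to 9, and 8667, 4205 and 4927 in PSC 11, 13 and 14. The PSC livers were below all others. Acly fell by 1.70 (SE 0.33, adjusted p = 0.00539) in PSC against control. It was also lower in PSC than in PBC (-1.86, SE 0.36, adjusted p = 0.0162 for PSC against PBC). Rdh11, a retinol dehydrogenase, fell by 1.53 (SE 0.25, adjusted p = 0.00167), and Mmab, which adenosylates cobalamin and neighbours Mvk, fell by 1.16 (SE 0.25, adjusted p = 0.00839). The others, named after their values were seen, were Acss2, which makes acetyl-CoA from acetate and fell by 1.71, Aacs, which makes acetoacetyl-CoA and fell by 2.13, and Lbr, a sterol reductase of the nuclear envelope that fell by 0.97. Tmem97 was not called.

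Of 10 genes of SREBP processing and sterol-regulated degradation, 2 (20% of the list) fell in PSC, against 6.48% of all tested models. Rnf145, a ubiquitin ligase of the endoplasmic reticulum, fell by 1.69 (SE 0.41, adjusted p = 0.0159), and Paqr3, a Golgi protein that binds the SREBP escort complex, fell by 1.24 (SE 0.34, adjusted p = 0.0279). In PBC 0 of the 10 were called by limma or edgeR and 2 were lower by DESeq2. In 4 every PBC liver was below every control, against 6.89% of all tested models. There Paqr3 changed by -1.10 (SE 0.34, adjusted p = 0.0556) and Rnf145 by -0.57 (SE 0.41, adjusted p = 0.405). Of 13 genes of intracellular transport and lipoprotein handling, 2 (15.4%) rose in PBC, against 7.6% of all tested models. In PSC 3 (23.1%) rose and 1 (7.69%) fell, against 8.25% and 6.48%. Lrp1, a receptor for lipoprotein remnants that is also abundant in macrophages, rose by 1.68 (SE 0.36, adjusted p = 0.0111) in PBC and by 1.43 (SE 0.36, adjusted p = 0.0195) in PSC. Gramd1c, which carries sterol from the plasma membrane to the endoplasmic reticulum, fell by 1.37 (SE 0.25, adjusted p = 0.00333) in PSC, whereas its relative Gramd1b rose by 1.86 (SE 0.49, adjusted p = 0.0312) in PBC and by 1.65 (SE 0.49, adjusted p = 0.0397) in PSC. Npc2, the soluble partner of Npc1 in lysosomes, named after its values were seen, rose by 0.76 (SE 0.23, adjusted p = 0.0392) in PSC.

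Of 9 oxysterol and liver X receptor genes, 1 (11.1%) rose in PSC, near the 8.25% of all tested models. Ch25h, which makes an oxysterol and is induced in macrophages, had 2.59, 25.7, 15.3 and 19.4 normalised reads in controls 1 to 4, 44.8, 63.7 and 8.46 in PBC 7 to 9, and 90.0, 64.7 and 131 in PSC 11, 13 and 14. The PSC livers were above all others at this low level, PSC 13 only just, and Ch25h rose by 2.79 (SE 0.75, adjusted p = 0.0264). Nr1h3, the liver X receptor of hepatocytes and macrophages, also chosen after its values were seen, was at 17854 ± 5416 in controls, 15609 ± 1200.1 in PBC and 18341 ± 3940.4 in PSC. Of 11 isoprenoid branch genes, 0 were called in any comparison by limma (3 lower in PBC and 2 lower in PSC at an unadjusted p under 0.05, 0 by edgeR, and 1 lower in PSC by DESeq2).

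**Figure D5:**
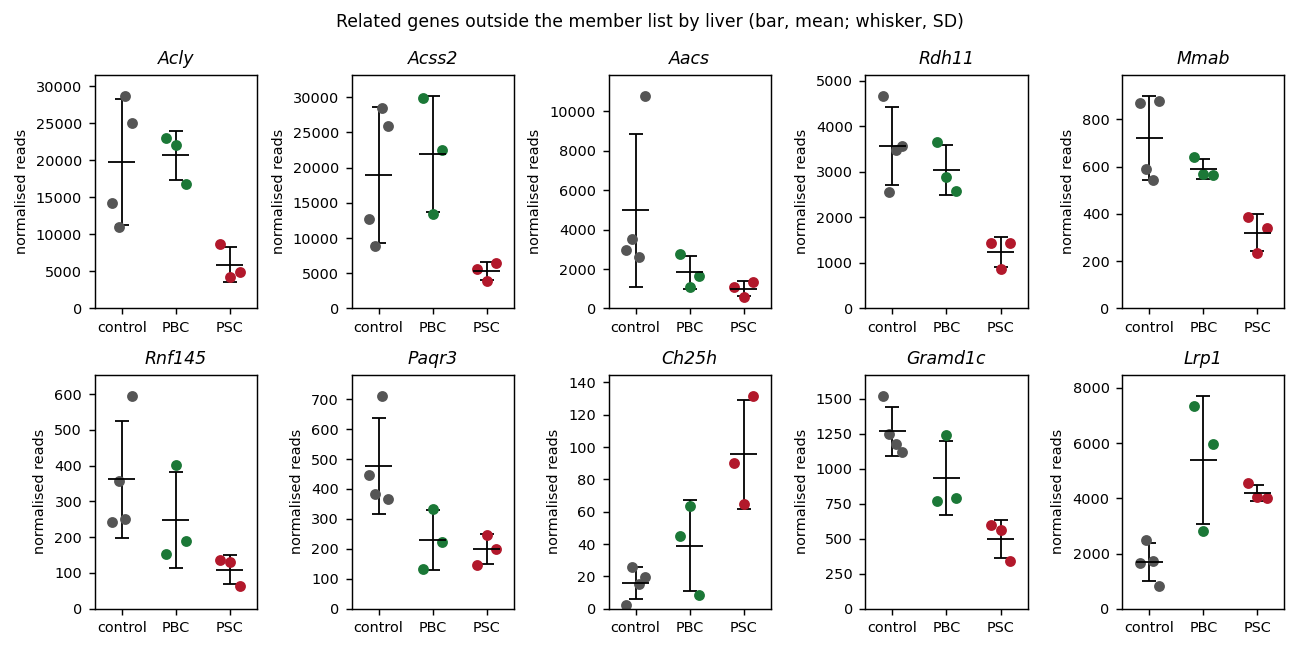
Normalised reads (vertical axis, from 0) of 10 related genes in each liver, with group mean (bar) and SD (whisker) for 4 control, 3 PBC and 3 PSC mice. Acly, Acss2, Aacs, Rdh11, Mmab, Rnf145, Paqr3 and Gramd1c fell in PSC, and Ch25h and Lrp1 rose.

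Several of these calls also rested on single libraries. Acly, Rdh11, Gramd1c and Aacs kept theirs in PSC against control under all 20 alternatives. The call in PSC was lost for Mmab without PSC 13 (adjusted p = 0.0508), Acss2 without PSC 13 (0.0573), Rnf145 without PSC 14 (0.0974), Paqr3 without control 1, control 3, PSC 11 or PSC 14 (0.054 to 0.119) or with scaling to the hepatocyte markers (0.0616), and Ch25h without control 1, PSC 11, PSC 13 or PSC 14 (0.0541 to 0.123). Lbr lost it in 9 alternatives (0.0505 to 0.109), among them those without control 1, control 3, control 4, PSC 11, PSC 13 or PSC 14. Lrp1 lost it without any 1 PSC liver (0.0561 to 0.0722), and in PBC without PBC 7 (0.0583) or PBC 9 (0.0623). Gramd1b lost it in PBC in 8 alternatives (0.0532 to 0.134), among them those without control 2, control 3, PBC 8 or PBC 9. In PSC, Gramd1b lost it in 9 alternatives (0.0579 to 0.169), among them those without any 1 of controls 1 to 3 or any 1 PSC liver, and Npc2 in 8 (0.0556 to 0.176), among them those without control 1, control 2, control 4 or any 1 PSC liver. Against PBC, Acly lost it without PBC 7, PSC 13 or PSC 14 (0.0591 to 0.0915), Rdh11 without the same libraries (0.0595 to 0.112) or with scaling to the hepatocyte markers (0.0573), and Acss2 without PBC 7, PBC 9 or any 1 PSC liver (0.0663 to 0.123). Ch25h moved to 2.16 without control 1, to 2.08 with pseudocount 10 and to 3.82 with sample quality weights.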

How the data were processed

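Liver RNA of 10 mice was sequenced as stranded, paired, poly(A)-selected libraries, per the labels' protocols. STAR 2.4.0, SAMtools, Picard, FastQC and DESeq2 and the build mm10 are named in the submitters' processing notes. How reads were counted, whether by strand, and what was done with reads from near-identical copies is not given in the sources used here. Deposited values (signal) are reads per gene model scaled by the authors with DESeq2. In each library 100% of the low, non-zero values that were checked were whole multiples of 1 step (tolerance 0.1 read). Higher values were not checked. Reads and depth were recovered by dividing by that step. Each library is labelled as a separate mouse.

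limma 3.58.1 (R 4.3.3) was fitted to log2(value + 1) of all 10 libraries, with 3 group means and a mean-variance trend, for models reaching 10 in 3 or more libraries, with Benjamini-Hochberg adjustment. Fold changes of low genes are understated by the added 1. Groups were taken from the labels. Alternatives were pseudocount 10, no filter, a filter of 50, equal totals, TMM scaling, fits of only the compared groups, sample quality weights, each library left out, and edgeR 4.0.16 and DESeq2 1.42.0 on recovered reads. Scaling to 7 hepatocyte markers was added after the data were seen. The script was tested on simulated data. All 33 members are described. By rule, values in every library go to members called in a comparison and to Srebf2, Insig1 and Abca1, up to 3 called genes with the smallest adjusted p are named from each related list, and promoters go to 4 synthesis genes and 1 exporter. Values in every library for Idi1, Fdps, Dhcr7, Insig2, Abcg1 and Abcg5 and for related genes, and other names, were added after seeing them. Members and lists were chosen with earlier results of these data known. Promoter sequences came from RefSeq (GRCm38.p6), and exons from GENCODE vM21.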

Additional observations from a re-analysis of the deposited data

Results flagged for a closer look

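Insig2 was at 2488 normalised reads in control 4, against 11286 to 12701 in the other 3 controls. On the scale of log2(value + 1), the gap to the nearest other control was 0.928 of the range of the 4, above Dixon's 95% critical value for 4 samples. Chance passes that limit in about 1 in 20 groups, and 33 genes were examined.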

How the results depend on the processing

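No called change of a member or related gene turned its direction under any alternative run. Changes that were not called did turn for 16 of the 33 genes in PBC against control, for 3 in PSC against control (Ggps1, Ebp and Insig2) and for 6 in PSC against PBC. The number of negative changes in PSC against control was 26, and 28 with TMM scaling, equal totals, edgeR or DESeq2. In PBC against control it was 21, and ran from 17 without control 1 to 28 with scaling to the hepatocyte markers. Of the 33 genes, 2 rose and 2 fell in PBC against control. The number that rose was 0 with equal totals, 0 with only the compared groups, 0 with scaling to the hepatocyte markers, and 0 to 4 with 1 library left out. The number that fell was 1 with only the compared groups, 4 with quality weights, 7 with scaling to the hepatocyte markers, and 0 to 3 with 1 library left out. Over all tested models 1398 rose and 430 fell in PBC against control. These counts were 752 and 89 with only the compared groups and 2425 and 1803 with quality weights. With scaling to the hepatocyte markers they were 612 and 2386. In PSC against control, 1 rose and 12 fell. With quality weights 2 rose and 23 fell, DESeq2 gave 18 that fell, and leaving out 1 library gave 3 to 17. The genes that DESeq2 added were Pmvk, Idi1, Fdps, Dhcr7, Abcg5 and Abcg8. Over all tested models 1192 fell in that comparison, 3404 with quality weights, 1929 with DESeq2 and 251 to 1899 with 1 library left out. In PSC against PBC, 2 were lower: 1 with equal totals, 8 with DESeq2, 9 with quality weights, 1 with scaling to the hepatocyte markers (where 1, Scarb1, was higher) and 1 to 3 with 1 library left out. The cause was not tested. Scaling moved the median of all tested models in PBC against control from 0.01 to -0.12 with equal totals and to -0.44 with the hepatocyte markers, and in PSC against PBC from -0.02 to 0.35 with the latter. No paired analysis was possible because the groups share no replicate numbers. With 3 or 4 mice a group, changes that missed the threshold are not shown to be absent.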
